A study of Homo sapiens with 4 samples.

Results

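Replication-independent histone variants are the histones whose genes lie outside the large histone clusters and whose proteins replace or supplement the canonical histones at any time of the cell cycle. The group examined here holds 8 genes: H2AX, H2AZ1, H2AZ2, H3-3A, H3-3B, MACROH2A1, MACROH2A2 and H1-10. Its members were chosen by name, by taking every probe set of the array whose annotated gene symbol was a member or its former name. This gave 15 of the 27631 probe sets. Of the 8 genes, 6 had a probe set annotated to that gene alone, while H3-3A and H3-3B were covered only by probe sets shared with a near-identical copy.

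The cells were WM35, an established line from a human melanoma in its radial growth phase, kept in DMEM with 10% FBS. C646, which blocks the acetyltransferase activity of p300 and CBP, was added to the medium at 20 µM, and control cultures received the solvent DMSO at 0.2%. RNA was collected after 6 h and after 24 h, and each of the 4 combinations (C646 for 6 h, DMSO for 6 h, C646 for 24 h, DMSO for 24 h) was measured on 1 Affymetrix Human Exon 1.0 ST array from 100 ng of total RNA. With 1 array per condition no difference between arrays at a single time has a replicate check, and all results come from a single cell line.

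In the nucleosome, DNA is wrapped around an octamer of the core histones H2A, H2B, H3 and H4, and a linker histone H1 sits where DNA enters and leaves. Canonical histones are made in bulk during S phase from clustered genes, whereas variants are made and inserted by dedicated chaperones outside replication as well. H2A.Z (from H2AZ1 and H2AZ2) flanks active promoters, H3.3 (from H3-3A and H3-3B, which encode the same protein) marks active genes and replaces displaced H3, macroH2A is enriched on silenced chromatin and is known to restrain melanoma progression, and H2A.X is phosphorylated around DNA breaks. H2A.Z.2 has a described role in melanoma cell proliferation.

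The values are log2 expression as the authors deposited them. The array medians lay between 4.39 and 4.41. Pearson's r over all probe sets was 0.975 to 0.979 between the 24 h C646 array and the other 3, and 0.991 to 0.996 among those 3. Of the 7 melanocyte markers examined, the 5 with an own probe set above the filter lay at the 88.2nd to 99.6th percentile of expression. Above that filter were 0 of 3 keratinocyte and 0 of 4 leukocyte markers, 2 of 4 fibroblast markers (LUM and COL1A1) and 1 of 4 endothelial markers (KDR). The 5 melanocyte markers were above DMSO with C646 at both times, with medians of 0.61 at 6 h and 0.74 at 24 h. At 24 h they ran from PMEL at 0.078 to S100B at 1.49. Over all probe sets the medians were -0.0024 at 6 h and 0.030 at 24 h, with 50.6% and 45.0% below 0. KDR was at 0.53 and 0.68. The part of these markers in the results below was not tested. In a bulk sample, fewer cells that express a gene and less RNA of it per cell cannot be told apart.

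After 24 h of C646, H2AX was the variant gene with the largest difference, and the genes for H2A.Z and for the linker histone H1.10 were lower by smaller amounts. Among the 6 genes with an own probe set, 5 were below their DMSO value at 24 h, beside 45.0% of all probe sets. The median difference of the 6 was -0.49, against 0.030 over all 16579 probe sets kept by the filter. Of the 6, 1 was at least 2-fold lower, beside 2.5% of all probe sets, and 0 were at least 2-fold higher, beside 1.14%. At 6 h the median was 0.00063, against -0.0024 over all probe sets, with 3 genes below and 3 above 0. Of all probe sets 50.6% were below 0 at 6 h. None of the 6 reached 2-fold at 6 h, when 0.115% of all probe sets were at least 2-fold lower and 0.127% at least 2-fold higher. All 6 genes passed the filter on low values, a mean over the 4 arrays of at least 3.96.

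H2AX encodes H2A.X, the variant whose C-terminal tail is phosphorylated next to double-strand breaks. It read 7.41 with C646 and 7.45 with DMSO at 6 h, and 6.15 with C646 and 7.50 with DMSO at 24 h (probe set 3394183). The 24 h C646 array therefore stood alone, while the other 3 arrays lay within 0.1 of each other. The log2 difference was -0.039 at 6 h and -1.36 at 24 h, where the linear level was 39.1% of the DMSO level. Only 1.58% of all probe sets were as low or lower at 24 h. Unlike most variant genes, H2AX is known to give both a polyadenylated transcript and a transcript with the stem-loop end of the clustered histone genes, and these data do not separate them.

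H2AZ1 and H2AZ2 encode the H2A.Z proteins, H2A.Z.1 and H2A.Z.2. H2AZ1 read 7.55 with C646 and 7.47 with DMSO at 6 h, and 6.77 with C646 and 7.45 with DMSO at 24 h (probe set 2779486). H2AZ2 read 7.96 with C646 and 8.00 with DMSO at 6 h, and 7.39 with C646 and 7.80 with DMSO at 24 h (probe set 3048869). For both genes the 24 h C646 array was the lowest of the 4. The difference for H2AZ1 was 0.074 at 6 h and -0.68 at 24 h, which leaves 62.3% of the DMSO level. The difference for H2AZ2 was -0.041 at 6 h and -0.41 at 24 h, which leaves 75.0%. As a share of all probe sets, 4.35% were as low as H2AZ1 or lower at 24 h and 8.85% as low as H2AZ2 or lower. A further probe set is annotated to both H2AZ2 and FAM174B and is numbered among those of chromosome 15, whereas H2AZ2 lies on chromosome 7. It was at 0.0059 at 6 h and 0.12 at 24 h.

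H1-10 encodes the linker histone H1.10, also known as H1X. It read 5.08 with C646 and 5.29 with DMSO at 6 h, and 4.47 with C646 and 5.03 with DMSO at 24 h (probe set 2694675). The C646 array was the lower at both times. The differences were -0.21 and -0.57, so that 67.5% of the DMSO level was left at 24 h, and 5.7% of all probe sets were as low or lower. H1-10 was also -0.26 between the DMSO arrays of 24 h and 6 h, a difference in the same direction without the compound. It lay at the 59.2nd percentile of expression, and its 24 h C646 value was close to that array's median of 4.41.

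MACROH2A1 and MACROH2A2 encode histones with a large macro domain behind their H2A-like part. MACROH2A1 read 5.90 with C646 and 5.86 with DMSO at 6 h, and 5.76 with C646 and 5.70 with DMSO at 24 h (probe set 2876479). MACROH2A2 read 4.73 with C646 and 4.69 with DMSO at 6 h, and 4.34 with C646 and 4.52 with DMSO at 24 h (probe set 3250602). The spread over all 4 arrays was 0.20 for MACROH2A1 and 0.39 for MACROH2A2. Their C646 differences were 0.040 and 0.042 at 6 h, and at 24 h 0.053 for MACROH2A1 and -0.18 for MACROH2A2. MACROH2A2 lay at the 53.0th percentile of expression, so its value is nearer to background than those of H2AX and the H2A.Z genes.

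**Figure D1:**
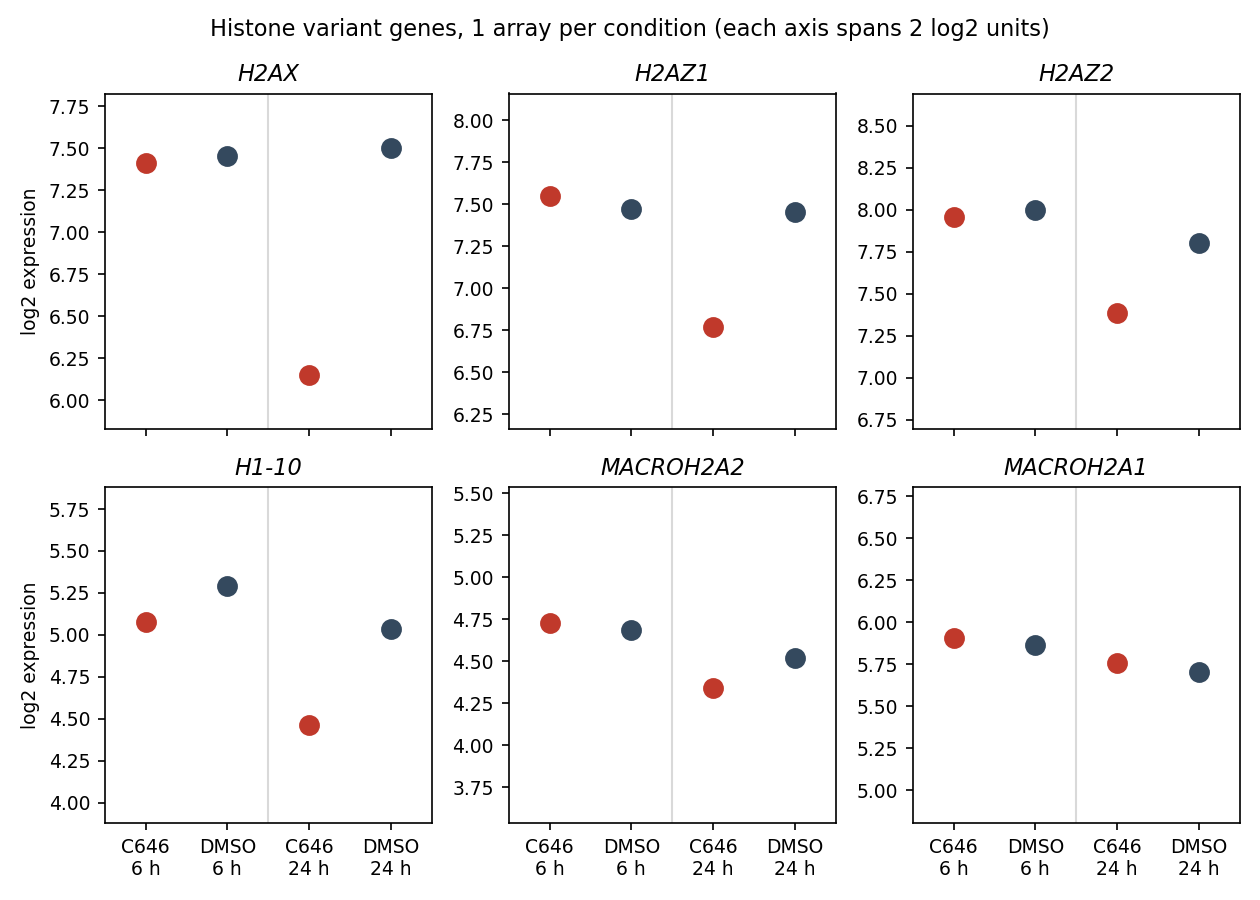
Log2 expression (vertical axis, 2 units in each panel) of the 6 variant genes with an own probe set, with C646 (red) left of DMSO (dark) at 6 h and at 24 h; each point is 1 array, so there are no error bars. H2AX at 24 h reads 6.15 with C646 and 7.50 with DMSO, whereas the 4 MACROH2A1 points lie within 0.20.

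The only pair of arrays that differs without the compound is DMSO at 24 h against DMSO at 6 h, and it gives a scale for these differences. Over all 16579 probe sets, the central 95% of that DMSO difference ran from -0.36 to 0.32. The 24 h differences of H2AX, H2AZ1, H1-10 and H2AZ2 lay below this range, and those of both macroH2A genes lay inside it. At 6 h all 6 genes lay inside it. Over the C646 differences of 24 h themselves the central 95% was wider, from -0.997 to 0.761, and of the 6 genes only H2AX lay outside it. In DMSO cells the 6 genes differed between the times by -0.26 to 0.050, with 5 of 6 lower at 24 h, beside 54.8% of all probe sets. None was past 2-fold, beside 0.0905% of all probe sets at least 2-fold lower and 0.0543% at least 2-fold higher. In C646 cells 6 of 6 were lower at 24 h than at 6 h, beside 46.5% of all probe sets. The C646 cells' differences between the times were -1.27 for H2AX, -0.78 for H2AZ1, -0.61 for H1-10, -0.57 for H2AZ2, -0.39 for MACROH2A2 and -0.15 for MACROH2A1. H2AX was again the only gene of the 6 past 2-fold, beside 2.41% of all probe sets lower and 0.869% higher. The 24 h effect minus the 6 h effect was -1.32 for H2AX, the only one of the 6 past 2-fold, beside 2.2% of all probe sets lower and 0.941% higher, and with 1 array per condition it has no test.

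**Figure D2:**
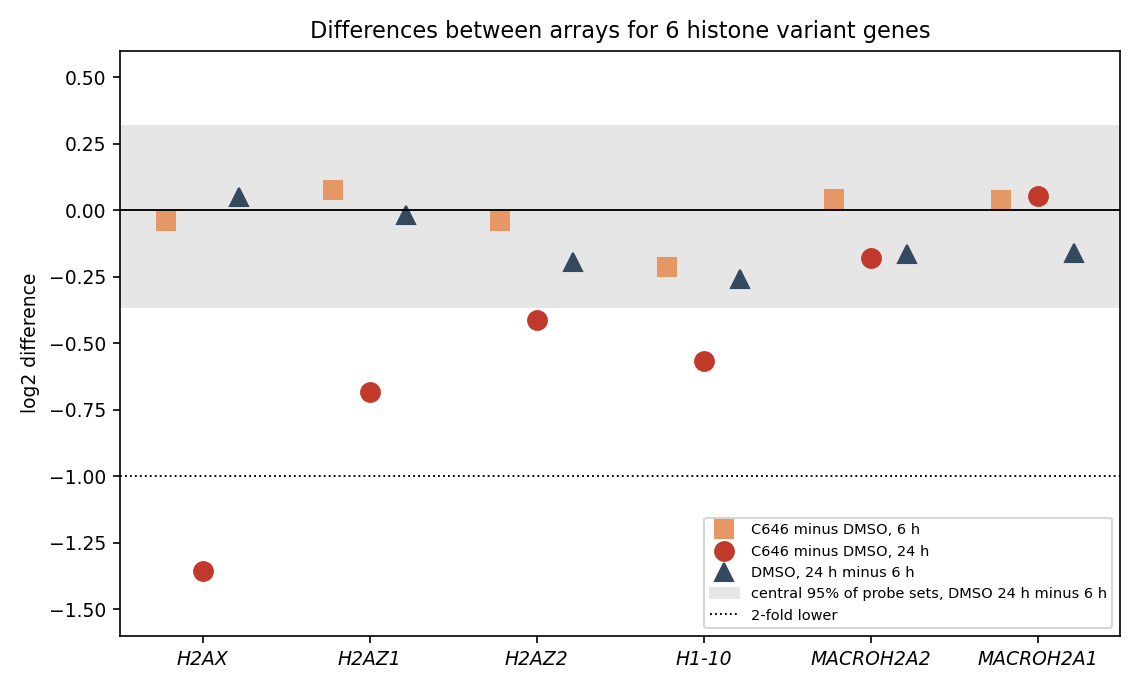
Log2 differences between single arrays for each variant gene: C646 minus DMSO at 6 h (squares) and at 24 h (circles), and DMSO at 24 h minus DMSO at 6 h (triangles). The grey band is the central 95% of all probe sets for the DMSO pair, -0.36 to 0.32, and 4 of the 6 circles lie below it.

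The effect of C646 over both times was fitted with limma on all 4 arrays, with time as a term. The fit has 1 residual degree of freedom, and its error is the disagreement of the 6 h and 24 h effects rather than the spread between cultures. In this fit 0 of 16579 probe sets passed an adjusted p of 0.05 (0% in each direction), with 1828 at an unadjusted p under 0.05, so none of the variant genes passed. The mean effect of H2AX was -0.70 ± 0.35 (SE, limma adjusted p = 0.489). That of H1-10 was -0.39 ± 0.13 (limma adjusted p = 0.448), and that of H2AZ1 was -0.30 ± 0.22 (limma adjusted p = 0.597). H2AZ2 was at -0.23 ± 0.15 (limma adjusted p = 0.562). MACROH2A1 at 0.047 ± 0.10 and MACROH2A2 at -0.068 ± 0.10 had estimates smaller than their errors.

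Without the 6 h C646 array, the remaining C646 array is compared with the 2 DMSO arrays together. This drops the time term, and the single C646 array is taken to vary like those of DMSO. The only error left is the difference between DMSO at 6 h and DMSO at 24 h, not the spread between cultures. Single genes are therefore given by effect only, and the counts of calls are not read as evidence of an effect. Under that setting 3 of the 6 genes were called lower, and 0 higher, beside 6.9% of all probe sets lower and 6.68% higher. H2AX was at -1.33, H2AZ1 at -0.69 and H1-10 at -0.70. H2AZ2 was at -0.51, MACROH2A2 at -0.26 and MACROH2A1 at -0.027. The calls rest on this choice of arrays, since with any other array left out 0 of the 6 passed.

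The promoters of the genes that were lower together at 24 h are shown with the promoter of MACROH2A2, whose 24 h difference stayed inside the range of the DMSO pair. Each covers 250 bases before to 50 bases after the RefSeq start site on GRCh38.p14, and all 8 genes had at least 1 of the 12 RefSeq promoter entries. Capitals mark CCAAT boxes (CCAAT), cell cycle homology region letters (TTTGAA or TTCGAA, called CHR) and TATA boxes (TATAAA), read on both strands. The CHR is known as the element through which DREAM and MuvB complexes act on cell cycle genes, and CCAAT boxes bind NF-Y.
H2AX (chr11:119095416-119095715, minus strand): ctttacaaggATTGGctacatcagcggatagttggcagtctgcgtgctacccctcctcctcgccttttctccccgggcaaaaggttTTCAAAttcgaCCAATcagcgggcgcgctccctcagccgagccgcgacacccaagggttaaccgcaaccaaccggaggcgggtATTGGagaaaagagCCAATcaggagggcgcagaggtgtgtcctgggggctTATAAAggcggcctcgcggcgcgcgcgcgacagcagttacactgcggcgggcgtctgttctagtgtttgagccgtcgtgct
H2AZ1 (chr4:99950226-99950525, minus strand): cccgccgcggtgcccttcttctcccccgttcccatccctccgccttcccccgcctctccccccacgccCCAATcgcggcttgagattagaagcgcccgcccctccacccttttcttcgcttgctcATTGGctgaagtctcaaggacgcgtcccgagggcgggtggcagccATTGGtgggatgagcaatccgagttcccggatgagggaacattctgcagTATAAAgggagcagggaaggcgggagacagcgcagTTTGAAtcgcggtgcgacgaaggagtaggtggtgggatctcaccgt
H2AZ2 (chr7:44848038-44848337, minus strand): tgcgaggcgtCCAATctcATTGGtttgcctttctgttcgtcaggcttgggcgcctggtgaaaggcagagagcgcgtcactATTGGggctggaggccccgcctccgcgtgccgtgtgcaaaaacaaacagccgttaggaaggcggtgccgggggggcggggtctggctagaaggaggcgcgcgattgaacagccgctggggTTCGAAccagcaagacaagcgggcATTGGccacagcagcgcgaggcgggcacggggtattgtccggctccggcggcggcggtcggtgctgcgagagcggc
H1-10 (chr3:129316237-129316536, minus strand): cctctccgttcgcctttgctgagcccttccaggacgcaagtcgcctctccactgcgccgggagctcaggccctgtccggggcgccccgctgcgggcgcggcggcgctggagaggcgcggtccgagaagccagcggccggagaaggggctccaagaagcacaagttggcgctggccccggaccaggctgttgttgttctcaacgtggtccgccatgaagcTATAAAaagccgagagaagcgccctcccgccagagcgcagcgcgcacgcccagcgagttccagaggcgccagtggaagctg
MACROH2A2 (chr10:70052596-70052895, plus strand): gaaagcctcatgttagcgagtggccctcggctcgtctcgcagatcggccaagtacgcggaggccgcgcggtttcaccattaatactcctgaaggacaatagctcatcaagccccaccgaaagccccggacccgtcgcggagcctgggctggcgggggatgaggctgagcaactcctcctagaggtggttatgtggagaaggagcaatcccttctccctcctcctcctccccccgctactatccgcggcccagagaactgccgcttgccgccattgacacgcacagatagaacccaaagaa
The windows of H2AX, H2AZ1 and H2AZ2 each held 1 CHR match, with 4, 3 and 4 CCAAT boxes. A CHR match was in 16.4% of all 35116 promoter windows, a CCAAT box in 34.6%, and both in 6.38%. H1-10, which was lower as well, held neither, and its window had only a TATA box. A TATA box, alone or with other matches, was in 11.5% of all windows. H2AX and H2AZ1 also had a TATA box, which began 31 bases before the start in each. H3-3B had 4 CCAAT boxes and a TATA box but no CHR letters. The 4 entries of H3-3A and the 2 of MACROH2A1 had no CHR match either. CCAAT boxes were not limited to the lower genes. Entry 2 of MACROH2A1, which also stayed inside the range of the DMSO pair and is not shown, held 2. Entries 1, 2 and 4 of H3-3A held 1 each. E2F letters (TTTCGCGC, TTTGGCGC, TTTCCCGC or TTTGCCGC), present in 3.31% of all windows, were in none of the 12. These matches describe letters in a window and not bound sites.

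H3.3 could not be read from a probe set of its own. H3-3A shares 6 probe sets with H3P6, a processed copy of the gene, and H3-3B shares 2 with H3-5, an intronless H3.3 relative, so each value below belongs to the pair and is uncertain for either gene. Of the H3-3A/H3P6 probe sets, 1 is numbered among those of chromosome 1, where H3-3A lies (probe set 2383062). It read 6.93 with C646 and 6.78 with DMSO at 6 h, and 6.76 with C646 and 6.85 with DMSO at 24 h, differences of 0.15 and -0.088. The probe set numbered with chromosome 2, where H3P6 lies (2516450), had the highest mean of the 6. It read 9.92 with C646 and 9.98 with DMSO at 6 h, and 9.98 with C646 and 10.05 with DMSO at 24 h. Both lay within 0.2 on all 4 arrays.

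The other 4 H3-3A/H3P6 probe sets are numbered with chromosomes 4, 4, 13 and X, where neither gene lies. At 24 h these were at 0.0054, -0.070, -0.21 and -0.24. At 6 h 2 of them were lower by more than the range of the DMSO pair. Probe set 3493208 read 8.64 with C646 and 9.32 with DMSO at 6 h, and 8.91 with C646 and 9.12 with DMSO at 24 h. Probe set 3989614 read 7.26 with C646 and 7.68 with DMSO at 6 h, and 7.32 with C646 and 7.56 with DMSO at 24 h. The differences at 6 h, -0.68 and -0.42, thus stand against 0.15 for the probe set at the H3-3A locus, and probe sets annotated to the same pair did not give the same value.

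The probe set of H3-3B and H3-5 that is numbered with chromosome 17, where H3-3B lies (3770944), read 7.61 with C646 and 7.85 with DMSO at 6 h, and 7.46 with C646 and 7.76 with DMSO at 24 h. Its differences were -0.23 and -0.30. The one numbered with chromosome 12, where H3-5 lies (3449957), was at -0.12 and -0.20. Both were below DMSO at both times and inside the range of the DMSO pair. At 24 h all 8 H3.3 probe sets lay between -0.30 and 0.0054, and none came near the 2-fold mark.

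**Figure D3:**
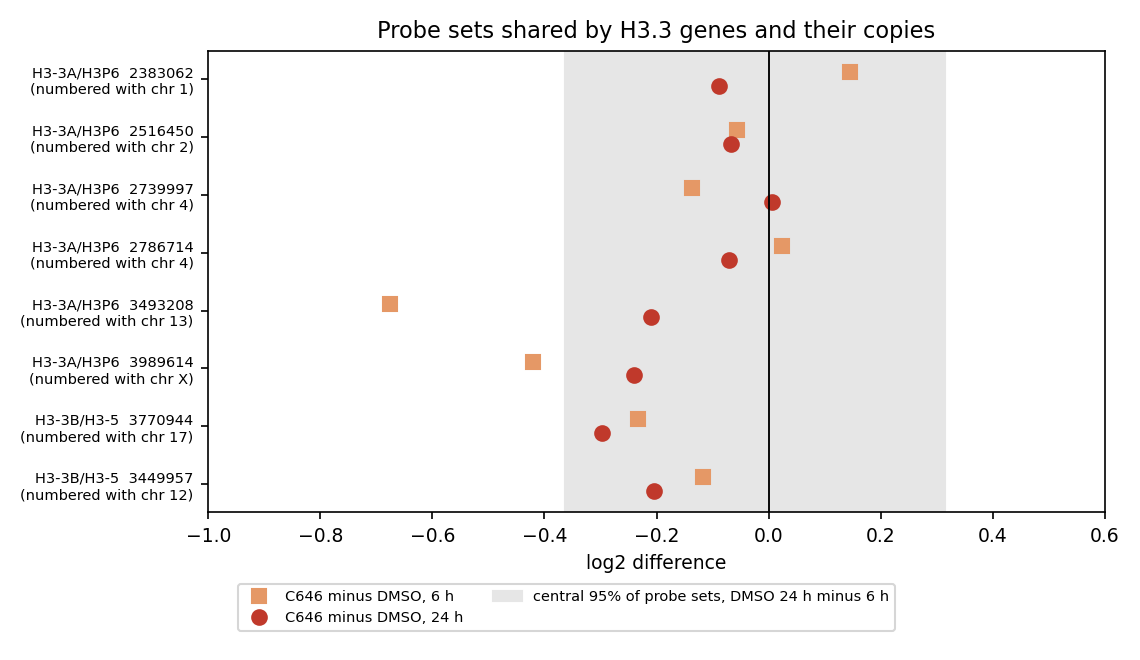
C646 minus DMSO log2 difference (horizontal axis) at 6 h (squares) and 24 h (circles) for the 8 probe sets shared by an H3.3 gene and its copy, 1 array against 1 array each; the grey band is the central 95% of all probe sets for DMSO at 24 h minus 6 h. All 24 h points lie in the band, and at 6 h probe sets 3493208 and 3989614 lie below it at -0.68 and -0.42.

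Of 4 other variant histone genes outside the group, 2 had an own probe set, and these lay on opposite sides of 0 at 24 h. CENPA, the centromeric H3 variant that is made in G2, read 7.23 with C646 and 7.37 with DMSO at 6 h, and 5.40 with C646 and 7.02 with DMSO at 24 h. Its differences were -0.14 and -1.62. H2AJ, an H2A variant known to accumulate in senescent human fibroblasts, read 4.27 with C646 and 4.24 with DMSO at 6 h, and 4.57 with C646 and 4.15 with DMSO at 24 h. Its differences were 0.029 and 0.42, at the 48.0th percentile of expression and so close to the filter.

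Genes that deposit or remove H2A.Z lay on both sides of 0. Of the 13 listed, 11 had an own probe set. SRCAP and EP400, the motor subunits of the complexes named after them, were covered only by shared ones. At 24 h the 11 had a median of -0.096 with 6 below 0, beside 45.0% of all probe sets, and 1 was at least 2-fold lower, beside 2.5%. That gene was ANP32E, the chaperone that takes H2A.Z off chromatin. ANP32E read 6.71 with C646 and 6.97 with DMSO at 6 h, and 5.49 with C646 and 6.79 with DMSO at 24 h, differences of -0.26 and -1.30. VPS72, the subunit of the SRCAP and EP400 complexes that binds H2A.Z, was at 0.025 and 0.32. YEATS4, a subunit of those complexes that was picked after its values were seen, was at -0.34 and -0.43. At 24 h these 3 genes lay outside the range of the DMSO pair, VPS72 by less than 0.01. At 6 h the 11 had a median of -0.047, and none reached 2-fold, beside 0.115% of all probe sets lower and 0.127% higher.

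H3.3 deposition genes lay in a narrow range. Of 7 listed, 6 had an own probe set, and HIRA, the core of the transcription-coupled chaperone complex, had only shared ones. All 6 were below 0 at 24 h, beside 45.0% of all probe sets, from -0.24 to -0.023, with a median of -0.10. All 6 were below 0 at 6 h as well, beside 50.6%, from -0.22 to -0.0032, with a median of -0.087. UBN1, a HIRA partner, was at -0.21 at 6 h and -0.17 at 24 h. CABIN1, another subunit of that complex, was at -0.0032 and -0.027.

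Among genes that act with H2A.X at DNA breaks, 1 of 10 was at least 2-fold lower at 24 h, beside 2.5% of all probe sets, and 8 were below 0, beside 45.0%. Their median was -0.40 at 24 h and -0.099 at 6 h, when 8 were below 0 too, beside 50.6%. MDC1, the adaptor that binds phosphorylated H2A.X, read 7.31 with C646 and 7.24 with DMSO at 6 h, and 6.00 with C646 and 7.20 with DMSO at 24 h. Its differences were 0.076 and -1.20, so MDC1 and H2AX both differed little at 6 h and were past 2-fold at 24 h. PRKDC, a kinase that phosphorylates H2A.X, was at -0.28 and -0.91. ATR, another such kinase, was at 0.29 and 0.16. RNF168, the ubiquitin ligase downstream of MDC1, was at -0.86 at 24 h, and BAZ1B, which phosphorylates a tyrosine of H2A.X, was at -0.71; both were picked after their values were seen. The probe set that stands for ATM is numbered with chromosome 7, away from its gene on chromosome 11, and was at -0.032 at 24 h; it too was picked after its values were seen.

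**Figure D4:**
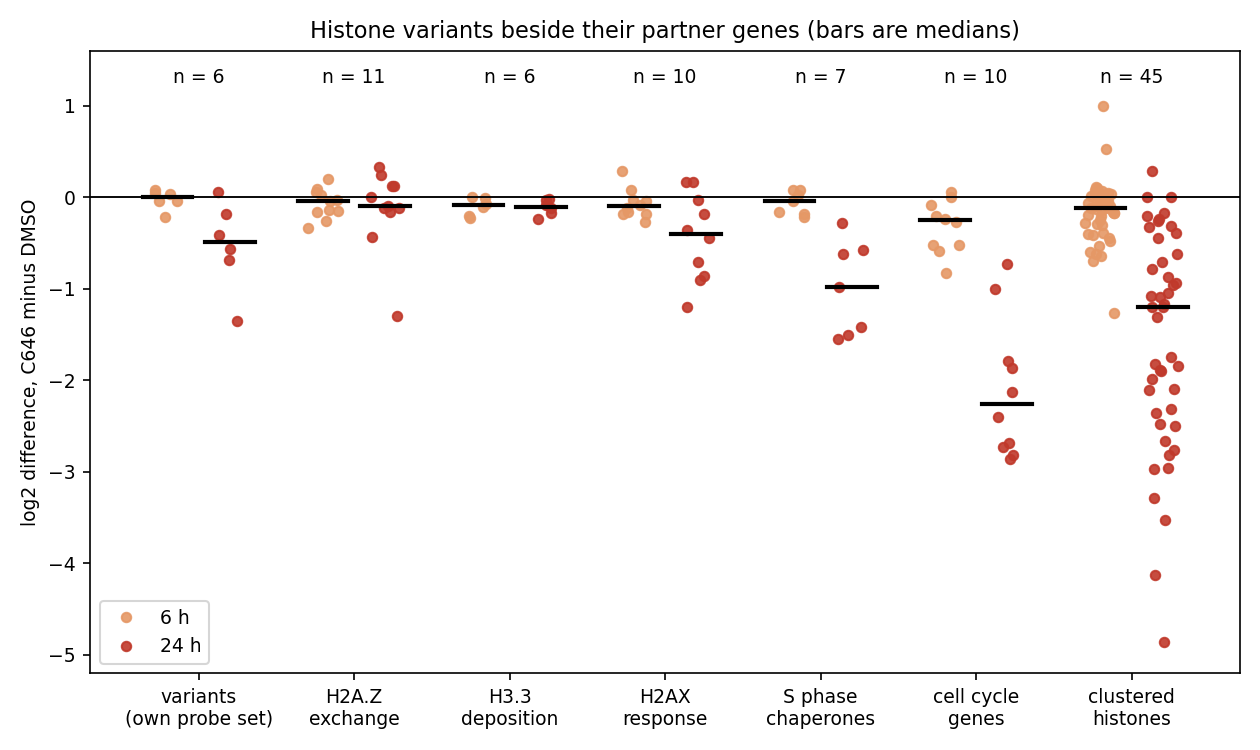
C646 minus DMSO log2 difference (vertical axis) at 6 h (left, orange) and 24 h (right, red) for each measured gene of 7 lists, with black bars at the medians; each point is 1 gene on 1 array against 1 array. At 24 h the medians are -0.49 for the variants, -0.096 for H2A.Z exchange, -0.10 for H3.3 deposition, -0.40 for the H2AX response, -0.98 for S phase chaperones, -2.26 for cell cycle genes and -1.20 for clustered histones.

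Histone genes and chaperones of S phase stood further from DMSO in the same pair of arrays. Of 45 measured genes listed by symbol as clustered histones, 43 were below 0 at 24 h, beside 45.0% of all probe sets. Of these 28 were at least 2-fold lower, beside 2.5%. The median of the 45 was -1.20, with a range from H2BC3 at -4.86 to H4C16 at 0.28. H4C16 lies on chromosome 12, whereas the other measured genes of the list lie on chromosomes 6 and 1. Clustered histone genes resemble each other closely in sequence, which makes any single value uncertain. Of 7 S phase chaperone genes, all were below 0 and 3 were at least 2-fold lower, beside the same shares: CHAF1A at -1.55 and CHAF1B at -1.51, the large subunits of chromatin assembly factor 1, and ASF1B at -1.42. RBBP4 was the least low at -0.28. ASF1A, the paralogue of ASF1B that works with HIRA, was at -0.12 and was picked after its values were seen. At 6 h 32 of the 45 listed histone genes were below 0, with a median of -0.12. Of the 7 chaperone genes 4 were below 0 at 6 h, with a median of -0.043. H2BC3, already at -1.26, was the only gene of both lists past 2-fold at 6 h, beside 0.115% of all probe sets lower and 0.127% higher. Beside these, 10 of 10 cell cycle genes were below 0 at 24 h, from -2.86 for CCNA2 to -0.72 for STMN1, with a median of -2.26. At 6 h 9 of 10 were below 0, with a median of -0.25. The shares of all probe sets below 0 were 45.0% at 24 h and 50.6% at 6 h. The cell cycle genes were thus low on the same array as H2AX and the H2A.Z genes, and their part in the lower variant values was not tested. The lists share the same 4 arrays, and no test of a difference between lists was made.

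The genes whose profile over the 4 arrays was most like that of H2AX were found among 10632 other named genes by the Euclidean distance between profiles centred on their means. H2AX was the only member with a range of at least 1 over the arrays and so the only one examined in this way. The nearest were LINC00997 (distance 0.077), NOP56 (0.082) and POLD3 (0.092). LINC00997, a long noncoding RNA gene, was at -0.097 at 6 h and -1.38 at 24 h. NOP56, a box C/D snoRNP protein gene, was at -0.15 and -1.33, but its probe set is numbered with chromosome 6 and the gene lies on chromosome 20. POLD3, a subunit of DNA polymerase delta, was at -0.084 and -1.42. With 4 arrays this likeness describes the profiles and no more.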

How the data were processed

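RNA of WM35 cells was measured on 4 Affymetrix Human Exon 1.0 ST arrays, 1 per treatment and time. The deposited table holds log2 values for 27631 probe sets, with a range of 2.48 to 13.6 that fits a log2 scale. The summarisation and normalization steps are, in the sources used here, not given, and the build hg19 comes per the submitters' processing notes. The number of arrays limits the precision.

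Symbols came from the platform annotation, updated by Entrez identifier with the GRCh38.p14 gene table, which matched 20362 of 20429 single-symbol probe sets. Probe sets with a mean of at least the 40th percentile (3.96) were kept, 16579 in all. The single-symbol probe set with the highest mean stood for a gene, and shared ones are given as shared. The chromosome with which a probe set is numbered is that of most of its 20 neighbours by number. Differences are array minus array, counted past 2-fold, with no test.

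limma 3.58.1 (R 4.3.3) fitted treatment and time on all kept probe sets, with a variance trend and Benjamini-Hochberg adjustment. The code was run on simulated data whose planted effects were equal at both times. That run cannot show how the fit treats effects that differ between 6 h and 24 h. Partner genes are named if at least 2-fold different at either time or highest or lowest by mean effect in their list; others are said to have been picked after their values were seen. Of the clustered histones the highest and lowest at 24 h are named, and 3 genes are named as most alike. The members and lists were chosen with earlier results of these data known. Alternatives were the filter, quantile normalization, the reference arrays, the choice of probe sets, the trend, the time term and leaving out each array.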

Additional observations from a re-analysis of the deposited data

Results flagged for a closer look

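With 1 array per condition a difference between the 6 h and the 24 h effect of C646 was not tested. Of the member probe sets and the partner and clustered histone genes that the naming rule selects, 9 lay on opposite sides of 0 at 24 h and 6 h. Among the members these were H2AZ1, whose 24 h effect minus its 6 h effect was -0.76, and MACROH2A2, at -0.22. Of the probe sets shared by H3-3A and H3P6, number 2383062 was at -0.23, 2739997 at 0.14 and 2786714 at -0.094. Among partner genes, MDC1 was at -1.27, ASF1B at -1.49 and RBBP4 at -0.35. H4C16, listed with the clustered histones but on chromosome 12, was at 0.32. The cell cycle gene STMN1, which the rule does not cover, was at 0.055 at 6 h and -0.72 at 24 h. In all 9 the 6 h effect was under 0.15 in size, so the sign at 6 h is set by a small difference between 2 arrays. Of all probe sets 50.6% were below 0 at 6 h and 45.0% at 24 h. The share that changed sides was not counted, so the 9 are not read as a trait of these genes.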

How the results depend on the processing

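The median 24 h difference of the variant genes was -0.49. It was -0.55 with the filter at the 60th percentile, which left 4 genes, -0.50 with quantile normalization and -0.60 with the average of the 2 DMSO arrays as the reference. With shared probe sets included, which brings in H3.3 and makes 8 genes, it was -0.36. Under these settings H2AX was the only gene past 2-fold at 24 h, and none was past 2-fold at 6 h. Of 68 single-gene differences under the alternatives, 68 moved by less than 0.17, the SD of the DMSO 24 h minus 6 h difference over all probe sets. Each gene has 1 own probe set, so the filter and probe set settings returned the same single-gene values. Only quantile normalization and the DMSO reference could move them, so the count says little about stability.

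In the limma fit over both times, 0 of 6 genes passed, also without the filter, with quantile normalization, without the trend and without the time term. With 1 array left out, between 0 and 3 passed, the 3 only without the C646 array of 6 h. The effects then ranged from -1.33 to -0.064 for H2AX, -0.70 to -0.084 for H1-10, -0.69 to 0.084 for H2AZ1, -0.51 to 0.057 for H2AZ2, -0.033 to 0.13 for MACROH2A1 and -0.26 to 0.12 for MACROH2A2. Over all alternatives of the limma fit the adjusted p ran from 0.00502 to 1.00 for H2AX, from 0.0197 to 1.00 for H2AZ1 and from 0.0421 to 1.00 for H1-10. The values nearest to 0 or above it for H2AX, H1-10, H2AZ1 and H2AZ2 were those without the C646 array of 24 h. No paired analysis was possible because the labels give no replicate numbers to pair by, but each C646 array has a DMSO array of its own time, and the fit above takes time as a term.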

Other observations

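Noncoding transcripts beside member genes were close to background. The divergent transcript H2AZ1-DT (probe set 2737381) read 3.35 with C646 and 3.37 with DMSO at 24 h, and the antisense transcript H1-10-AS1 (probe set 2641601) read 3.37 with C646 and 3.46 with DMSO. Both means lay below the filter of 3.96, so these readings give no level to set beside H2AZ1 and H1-10.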
